A study of Mus musculus with 15 samples.

Results

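The comparison concerns 7 aortae from vehicle-treated mice, which were divided into a fat-rich and a fat-poor side by the signal of Ucp1, the uncoupling protein of brown fat. An array was placed on the fat-rich side when its Ucp1 probe set was above 11 on the log2 scale and on the fat-poor side otherwise. The arrays of each side were thus chosen by their own Ucp1 values. The rule gave 3 fat-rich arrays (vehicle 1, 2 and 3) and 4 fat-poor arrays (vehicle 4, 5, 6 and 7) of 15 arrays in the whole series. The other 8 arrays came from mice given angiotensin II (AngII) and took no part in the division. All mice carried the strain label C57BL6, were 2 months old when an osmotic minipump was implanted, and received physiological saline or AngII at 1 µg/kg/min for 3 weeks. No transgene or deletion is named for any of them, and each array held the aorta of 1 mouse. According to the study's methods visible perivascular tissue was removed by hand from the aorta before RNA was made, and residual blood was rinsed out. The study asked how hypertension changes the aortic transcriptome, and the division of the vehicle arrays is not part of its design.

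The aorta of a mouse lies in perivascular fat, which around the thoracic part of the vessel is brown fat. Brown adipocytes store triglyceride in many small droplets, are packed with mitochondria, and burn fatty acids to make heat: noradrenaline starts lipolysis, the fatty acids are oxidised, and Ucp1 lets protons run back across the inner mitochondrial membrane without making ATP. The tissue also holds a dense capillary net, nerve fibres, macrophages and mast cells, none of which belong to the smooth muscle layers of the vessel wall.

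The fat-rich arrays had Ucp1 signals of 12.20, 11.65 and 12.03, and the fat-poor arrays had 10.35, 8.90, 10.08 and 8.50. The value just inside the limit was therefore 11.65 in vehicle 2, and the value just outside was 10.35 in vehicle 4. These values chose the sides, so they are not a result, and every difference between the sides below is a description of the same 7 arrays with no test. In the AngII arrays, Ucp1 ran from 9.19 in AngII 6 to 12.07 in AngII 5 with a median of 11.28, so the 8 mice outside the rule spanned a range that overlapped both sides. The vehicle arrays carried the markers of the labelled tissue: Myh11, the smooth muscle myosin heavy chain, lay between 12.84 and 13.32, and Acta2, smooth muscle actin, lay between 13.81 and 13.94.

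Array medians lay between 7.16 and 7.28, and the correlation of any array with any other over all probe sets lay between 0.925 and 0.985. The array names in the labels fall into 2 naming series, whose meaning the labels do not give. Vehicle 1 and 2 and AngII 1 to 3 belong to the first (A) and the remaining arrays to the second (B). All 4 fat-poor arrays and 1 fat-rich array, vehicle 3, belong to the second series, so each difference could also be taken within it as vehicle 3 against vehicle 4 to 7. In whole tissue, fewer cells of a type and less RNA per cell cannot be told apart.

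A gene was counted as 2-fold higher or lower when the side means differed by at least 1 on the log2 scale and no array of one side passed into the range of the other. Of 15094 probe sets other than Ucp1, 148 (0.981%) were higher on the fat-rich side by this rule and 4 (0.0265%) were lower. With 1 probe set per gene, the same rule gave 130 genes higher and 4 lower. Regardless of size, 994 of 12847 genes (7.74%) had every fat-rich array above every fat-poor array, and 538 (4.19%) had every fat-rich array below. Among the 130 genes, 67 stood in 1 of the gene lists described below and 63 in none. Within the second naming series, where vehicle 3 alone made up the fat-rich side, 169 probe sets were higher by the rule and 2 were lower.

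Cytochrome c oxidase, the last enzyme of the respiratory chain, has several subunits that exist as paired isoforms, and 2 of these pairs are given first. Cox8b and Cox7a1 are the isoforms of heart, skeletal muscle and brown fat, whereas Cox8a and Cox7a2 are made in most tissues. The promoter windows of these 4 genes are shown because the isoforms of each pair differed in how far they followed the sides. Each window runs from 250 bases before to 50 bases after the transcription start in RefSeq on GRCm38.p6, is written 5′ to 3′ on the strand of the gene, and has CG dinucleotides and the motif TATAAA in capitals. The windows lie at chr7:140900397-140900696 on the minus strand for Cox8b, chr19:7217567-7217866 on the minus strand for Cox8a, chr7:30183921-30184220 on the plus strand for Cox7a1 and chr9:79759804-79760103 on the minus strand for Cox7a2.
Cox8b: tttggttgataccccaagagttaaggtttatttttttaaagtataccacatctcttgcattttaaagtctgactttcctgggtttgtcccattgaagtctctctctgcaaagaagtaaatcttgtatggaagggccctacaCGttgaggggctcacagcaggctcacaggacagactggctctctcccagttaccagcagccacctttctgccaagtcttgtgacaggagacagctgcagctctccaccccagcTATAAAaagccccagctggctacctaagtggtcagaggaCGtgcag
Cox8a: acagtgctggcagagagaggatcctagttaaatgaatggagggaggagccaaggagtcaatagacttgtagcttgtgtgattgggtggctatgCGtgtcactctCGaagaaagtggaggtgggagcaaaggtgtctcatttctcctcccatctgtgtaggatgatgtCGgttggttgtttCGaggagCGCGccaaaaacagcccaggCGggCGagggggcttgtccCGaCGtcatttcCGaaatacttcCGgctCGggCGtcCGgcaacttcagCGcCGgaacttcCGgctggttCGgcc
Cox7a1: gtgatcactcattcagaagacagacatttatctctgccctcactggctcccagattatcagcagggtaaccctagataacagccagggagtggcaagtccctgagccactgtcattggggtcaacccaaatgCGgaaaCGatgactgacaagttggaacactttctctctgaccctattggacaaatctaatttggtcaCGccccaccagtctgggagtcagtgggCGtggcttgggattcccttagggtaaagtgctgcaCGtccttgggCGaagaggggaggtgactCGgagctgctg
Cox7a2: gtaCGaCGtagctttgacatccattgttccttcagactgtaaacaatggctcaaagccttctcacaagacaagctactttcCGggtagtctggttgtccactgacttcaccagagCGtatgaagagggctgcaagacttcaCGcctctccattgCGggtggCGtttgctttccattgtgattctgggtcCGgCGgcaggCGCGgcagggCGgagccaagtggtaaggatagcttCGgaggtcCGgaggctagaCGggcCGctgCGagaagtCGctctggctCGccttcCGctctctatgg
The window of Cox8b held 2 CG dinucleotides and 1 TATAAA, and that of Cox8a held 19 CG dinucleotides and no TATAAA. The TATAAA of Cox8b began 4 bases after the annotated transcription start, not before it. The window of Cox7a1 held 7 CG dinucleotides and that of Cox7a2 held 20. None of the 4 windows held the hexamer AGGTCA, on either strand, to which nuclear receptors bind.

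Cox8b had signals of 10.47, 9.48 and 10.22 in the fat-rich arrays and 8.16, 6.54, 8.41 and 6.91 in the fat-poor arrays. The sides did not overlap, and the means differed by 2.55, or 5.87-fold. Its ubiquitous partner Cox8a had 11.33, 10.98 and 11.14 against 10.86, 10.44, 10.75 and 10.55. These sides did not overlap either, but the difference was 0.50, or 1.42-fold. Cox7a1 had 9.91, 8.97 and 9.76 on the fat-rich side and 7.38, 6.44, 7.83 and 6.78 on the fat-poor side, a difference of 2.44 or 5.42-fold without overlap. Cox7a2 had 9.09, 8.92 and 9.22 against 8.9966, 8.42, 8.94 and 8.66, and its sides overlapped with a difference of 0.32.

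Of 12 measured isoforms of the enzyme, 5 had every fat-rich array above every fat-poor array, beside 7.74% of all genes. Cox8b and Cox7a1 alone were at least 2-fold higher by the rule, beside 130 of all 12847 genes. Cox6a1 was 1.57-fold and Cox7b 1.58-fold higher without overlap, and Cox6b1 was 1.58-fold higher with overlap. The lung isoform Cox4i2 differed by -0.12 and the testis isoform Cox6b2 by 0.08, both with overlapping sides. Cox6a2, which is made in heart, skeletal muscle and brown fat, was high in vehicle 1 alone: it had 9.20 there and between 5.91 and 6.10 in the other 6 vehicle arrays. The same array stood out for genes of heart muscle, as described below, so the Cox6a2 difference of 1.01 rested on 1 array.

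**Figure D1:**
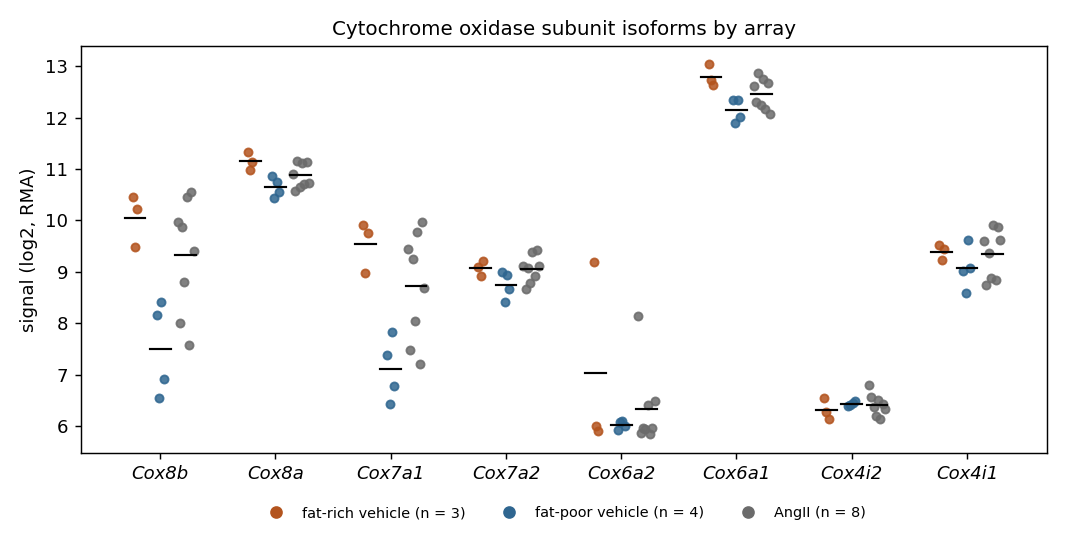
Log2 signals of 8 cytochrome c oxidase subunits in the 7 vehicle and 8 AngII arrays, 1 point per array. The fat-rich, fat-poor and AngII arrays stand apart, with a line at the mean of each. Cox8b and Cox7a1 differed by 2.55 and 2.44 between the side means, and Cox8a and Cox7a2 by 0.50 and 0.32. Cox6a2 was high in vehicle 1 alone among the vehicle arrays, and AngII 1 was the highest AngII array at 8.14.

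The brown adipocyte list followed the same division. Of its 25 measured genes, 18 had every fat-rich array above every fat-poor array, beside 7.74% of all genes. At least 2-fold higher were 14, beside 130 of all 12847 genes. None was lower without overlap, and the median difference was 1.08 against -0.0062 over all genes. The largest difference of any gene belonged to Elovl3, an enzyme that lengthens very long chain fatty acids and is a marker of active brown fat. Elovl3 had 10.45, 8.78 and 9.29 in the fat-rich arrays and 7.86, 5.98, 7.33 and 5.60 in the fat-poor arrays, a difference of 2.82 or 7.04-fold. Cidea, a lipid droplet protein of brown fat, had 11.23, 10.25 and 10.84 against 9.09, 8.13, 9.96 and 8.39, or 3.67-fold. Slc27a2, which takes up and activates very long chain fatty acids, was 4.27-fold higher, and Nrg4, a growth factor secreted by brown fat, was 2.65-fold higher.

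The regulators of brown fat differed from each other. Ppargc1a, the coactivator that drives mitochondrial biogenesis, had 7.48, 7.11 and 8.06 against 6.60, 6.37, 6.29 and 6.36, or 2.21-fold without overlap. Ppara, the nuclear receptor for fatty acids, was 2.12-fold higher, with 7.48, 6.70 and 7.21 against 6.13, 5.84, 6.22 and 6.00. Prdm16, the factor that sets brown adipocyte identity, had 8.57, 9.22 and 8.76 against 8.90, 9.13, 9.04 and 8.85, and its sides overlapped with a difference of -0.13. Dio2, which makes active thyroid hormone, overlapped as well at 1.59-fold.

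General adipocyte genes, which white and brown fat share, differed at least as far. Of 27 measured genes, 20 were apart upwards, beside 7.74% of all genes, and 15 were 2-fold higher, with a median difference of 1.25. Pck1, the first enzyme of glyceroneogenesis in fat, had 10.62, 10.04 and 10.91 on the fat-rich side and 8.73, 7.76, 8.86 and 7.88 on the fat-poor side, or 4.65-fold. Gpd1, which makes glycerol 3-phosphate for triglyceride, had 11.86, 11.10 and 11.37 against 9.74, 8.78, 10.54 and 8.52, or 4.14-fold. The droplet proteins Cidec and Plin1 were 4.10-fold and 3.20-fold higher, and the adipocyte regulator Pparg was 3.30-fold higher. The white adipocyte list had a lower median difference, 0.08 over 18 measured genes. Of these 4 were apart upwards, beside 7.74% of all genes. Orm1 and Car3, 2 of the 4, were more than 2-fold higher, beside 130 of all 12847 genes. A further 9 were higher by their means with overlapping sides, 4 of them through vehicle 6 alone. The list shares Hoxc8, Hoxc9 and Hoxc10 with the HOX list and Wt1 with the mesothelial list. Orm1, an acute phase protein, was 3.55-fold higher and Car3, a carbonic anhydrase abundant in fat, 3.45-fold.

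Fatty acid oxidation was among the most uniform of the groups. Of 22 measured genes, 18 were apart upwards, 15 were at least 2-fold higher and the median difference was 1.04. Over all genes 7.74% were apart upwards and 130 of 12847 were 2-fold higher by the rule. Acaa2, the last enzyme of the mitochondrial spiral, had 10.56, 9.52 and 10.11 against 8.62, 8.08, 9.03 and 8.61, or 2.79-fold. Slc25a20, the carnitine carrier of the inner membrane, was 2.78-fold higher, Acadl 2.49-fold and Cpt2 2.47-fold. In the citric acid cycle 16 of 21 genes were apart but 5 were 2-fold higher, with a median of 0.85. Idh3a, a subunit of isocitrate dehydrogenase, reached 2.52-fold. In the respiratory chain 37 of 59 genes were apart and 3 were 2-fold higher, namely Cox5a at 2.32-fold, Cyc1 at 2.05-fold and Ndufa10 at 2.02-fold. The median of the chain was 0.56.

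Several of the genes that were 2-fold higher stood in no list. Gys2, the glycogen synthase isoform of liver and fat, had 8.75, 6.99 and 7.86 on the fat-rich side and 5.88, 5.27, 6.47 and 5.49 on the fat-poor side, or 4.25-fold. The muscle isoform Gys1 was 2.09-fold higher. Gpd2, which with Gpd1 carries electrons from cytosolic NADH into the chain, was 2.58-fold higher, and the monocarboxylate carrier Slc16a1 was 3.21-fold higher. Klb, the coreceptor of FGF21, was 3.12-fold higher and Chchd10, a protein of the mitochondrial intermembrane space, 4.24-fold. Gys1, Gpd2, Slc16a1 and Klb, like the regulators Ppargc1a, Ppara, Prdm16, Dio2 and Pparg above, were named after their values were seen.

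Of 17 listed genes of heat-making cycles other than Ucp1, which cover creatine and calcium cycling, 9 were measured. Ckmt1, Ckmt2, Gatm, Atp2a1 and Sln were among those not measured, and Atp2a2 and Ryr2 also stand in the smooth muscle channel list. None of the 9 was apart in either direction, and their median difference was 0.03. Over all genes 7.74% were apart upwards and 4.19% downwards, so none of 9 lies near these shares. Slc25a5, an ADP/ATP carrier, differed by 0.45, Alpl, a phosphatase of the creatine cycle, by 0.38, and the creatine transporter Slc6a8 by -0.14, all with overlapping sides.

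**Figure D2:**
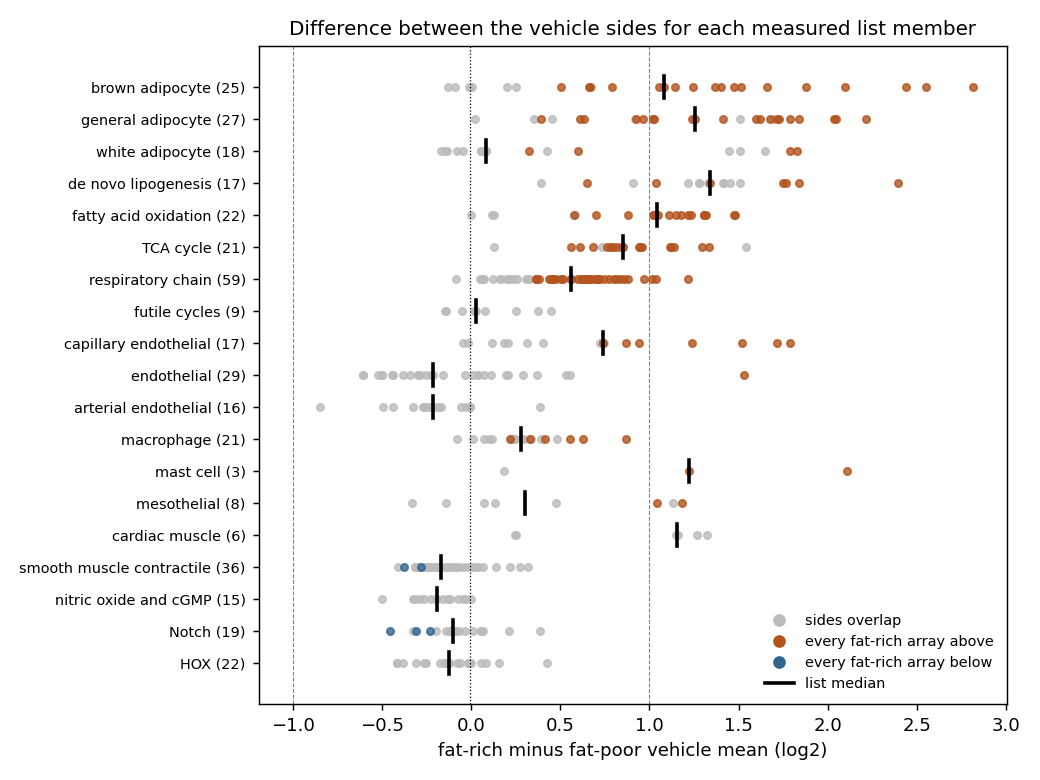
Difference between the fat-rich and fat-poor means on the log2 scale for each measured gene of 19 gene lists, with a bar at the list median and dashed lines at 2-fold. The medians of lipogenesis, general adipocyte, brown adipocyte and fatty acid oxidation genes lay above 1. So did those of mast cell (1.22) and cardiac muscle genes (1.15). Those of the smooth muscle contractile, Notch and nitric oxide lists lay between -0.19 and -0.10.

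De novo lipogenesis, the making of fatty acids from glucose, had a median of 1.34 over 17 genes. All of them were higher on the fat-rich side by their means, yet 7 of them were apart, beside 7.74% of all genes. In the other 10 the fat-poor array vehicle 6, and no other fat-poor array, lay above the lowest fat-rich array. Elovl6, which lengthens palmitate, was apart, with 11.70, 10.60 and 10.79 against 8.51, 8.64, 9.77 and 7.64, or 5.25-fold. Fasn, fatty acid synthase, had 13.20, 12.59 and 12.69 against 11.41, 10.85, 12.67 and 10.74: vehicle 6 lay above vehicle 2. Acaca, which makes malonyl-CoA, had 11.33, 10.47 and 10.72 against 9.18, 8.87, 10.55 and 8.73, with the same overlap. Pnpla3, a triglyceride lipase homologue that is switched on by lipogenic signals, had 9.57, 8.30 and 8.36 against 6.60, 6.61, 8.66 and 6.51, so that vehicle 6 passed both vehicle 2 and vehicle 3.

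This array was not the fat-poor array with the most Ucp1. Vehicle 6 had 0.27 less Ucp1 than vehicle 4, yet it was the highest fat-poor array for 116 of the 130 genes that were 2-fold higher, whereas vehicle 4 was the highest for 11, vehicle 5 for 3 and vehicle 7 for 0. The excess of vehicle 6 over vehicle 4 differed by gene group. All 17 lipogenesis genes were higher in vehicle 6, with a median of 1.18, and so were 25 of 27 general adipocyte genes with a median of 0.58. White adipocyte genes had a median of 0.26, brown adipocyte genes 0.16 and fatty acid oxidation genes 0.15. Of the 59 respiratory chain genes 29 were higher in vehicle 6, and of all 12847 genes 6156 were. These are 2 single mice, and the difference has no replicate check. Among 199 probe sets with side means at least 2-fold apart, 51 had overlapping sides, and in 39 of those vehicle 6 was above the lowest fat-rich array.

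On the fat-rich side the order was also steady over genes. Vehicle 1 was the highest of the 3 for 125 of the 130 genes and vehicle 2 the lowest for 122, in the order of their Ucp1 signals. The mean of the 130 genes was 9.40 in vehicle 1, 8.84 in vehicle 3 and 8.40 in vehicle 2. In the fat-poor arrays it was 7.99 in vehicle 6, 7.56 in vehicle 4, 7.14 in vehicle 5 and 7.10 in vehicle 7.

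**Figure D3:**
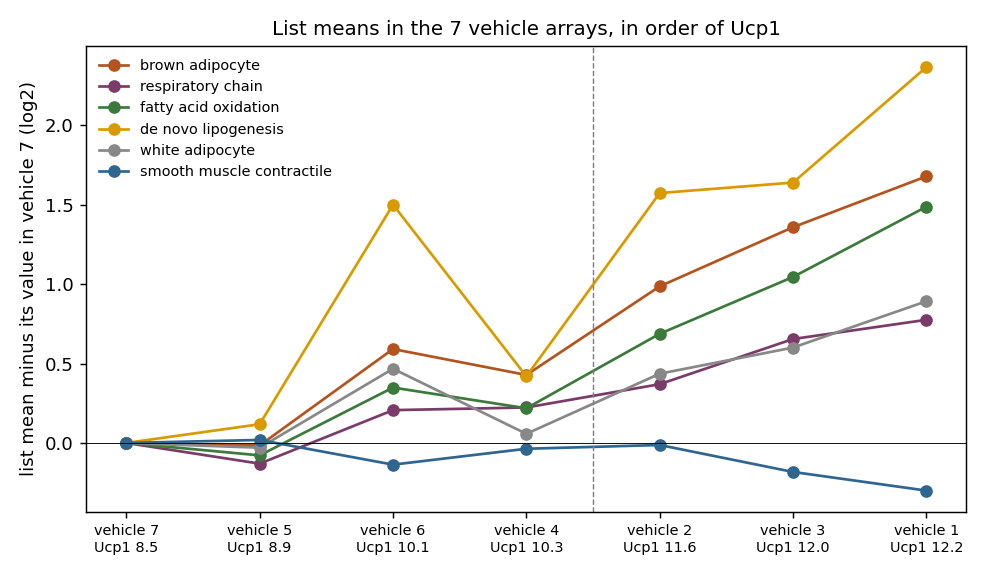
Mean log2 signal of gene lists in each vehicle array relative to vehicle 7, with arrays in the order of their Ucp1 signal and the sides marked. Lipogenesis genes were higher in vehicle 6 than in vehicle 4 although vehicle 6 had 0.27 less Ucp1.

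The lipolysis machinery and secreted products differed by member. Of 17 genes of adrenergic lipolysis 6 were apart, 4 were 2-fold higher and the median was 0.37. Pnpla2, the first lipase of the triglyceride, was 2.38-fold higher, and Prkar2b, the regulatory subunit of protein kinase A in fat, had 9.74, 8.72 and 9.72 against 7.52, 6.63, 8.46 and 6.95, or 4.01-fold. Lipe, hormone-sensitive lipase, had overlapping sides through vehicle 6. Among 15 adipokines and secreted products 6 were apart. Over all genes 7.74% were apart upwards. Adiponectin (Adipoq) was 3.07-fold higher, with 8.72, 8.02 and 8.54 against 7.14, 6.21, 7.84 and 6.03, and resistin (Retn) was 2.73-fold higher with vehicle 6 inside the fat-rich range. Angptl4, which inhibits lipoprotein lipase, was 1.83-fold higher.

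The 8 AngII arrays, which the rule did not use, allowed a test of the relation itself. In them the log2 signal of each probe set was fitted on the log2 signal of Ucp1 with limma, and p-values were adjusted by Benjamini-Hochberg over 15094 probe sets. At an adjusted p of 0.05, 260 probe sets (1.72%) rose with Ucp1 and 4 (0.0265%) fell. With 1 probe set per gene, 231 of 12847 genes (1.80%) rose. Of the 130 genes that were 2-fold higher on the fat-rich side, 91 (70.0%) rose with Ucp1 among the AngII mice, and these made up 39.4% of the rising genes. All 130 had a positive slope and 123 had an unadjusted p under 0.05 in this fit. Their median slope was 0.56 log2 units per log2 unit of Ucp1, against -0.013 over all genes. Of the 231 rising genes, 230 had a higher mean on the fat-rich side of the vehicle arrays, and in 171 the sides did not overlap.

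The calls depended on AngII 6, the AngII array with the least Ucp1. It had the lowest signal of the 8 for 105 of the 130 genes. Without it 2 probe sets were called, both rising, Cox8b and Cox7a1. All 130 slopes remained positive without it, with a median of 0.66. With the naming series as a covariate 296 probe sets rose and 12 fell, and leaving out any other AngII array gave between 98 and 275 rising.

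Cox8b had the steepest slope of the called genes, 1.07 ± 0.10 (SE, n = 8; adjusted p = 0.00271), and 1.32 without AngII 6 (adjusted p = 0.0242). Its AngII signals were 9.97, 8.00, 9.88, 8.80, 10.46, 7.57, 10.55 and 9.41 in AngII 1 to 8, with the lowest value in AngII 6 and the highest in AngII 7. Cox7a1 rose by 0.99 ± 0.11 (adjusted p = 0.00349), and by 1.32 without AngII 6 (adjusted p = 0.0242). Cox8a and Cox7a2 had slopes of 0.17 and 0.19 that did not pass the test (adjusted p = 0.317 and 0.342). Elovl3 rose by 0.99 ± 0.13 (adjusted p = 0.00545), with 1.23 and adjusted p = 0.0701 without AngII 6. Gpd1 rose by 0.90 ± 0.07 (adjusted p = 0.0027), and Slc36a2, an amino acid transporter of the brown adipocyte surface, rose by 0.91 ± 0.09 (adjusted p = 0.00271). Pnpla3 (slope 0.77), Fasn (0.82) and Acaca (0.86), which overlapped between the vehicle sides, rose too, with adjusted p of 0.021, 0.00271 and 0.00368. For Gpd1, Slc36a2, Pnpla3, Fasn and Acaca the adjusted p without AngII 6 lay between 0.0701 and 0.138.

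By list, 21 of 27 general adipocyte, 14 of 25 brown adipocyte, 14 of 17 lipogenesis, 16 of 22 fatty acid oxidation, 15 of 21 citric acid cycle and 16 of 59 respiratory chain genes rose in the AngII arrays. The share over all genes was 1.80%. Of the 9 measured genes of the other heat-making cycles none rose, which with so few genes lies near that share. Ppara had a slope of 0.45 (adjusted p = 0.0197), Ppargc1a 0.33 (adjusted p = 0.0988) and Prdm16 -0.03 (adjusted p = 0.925).

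**Figure D4:**
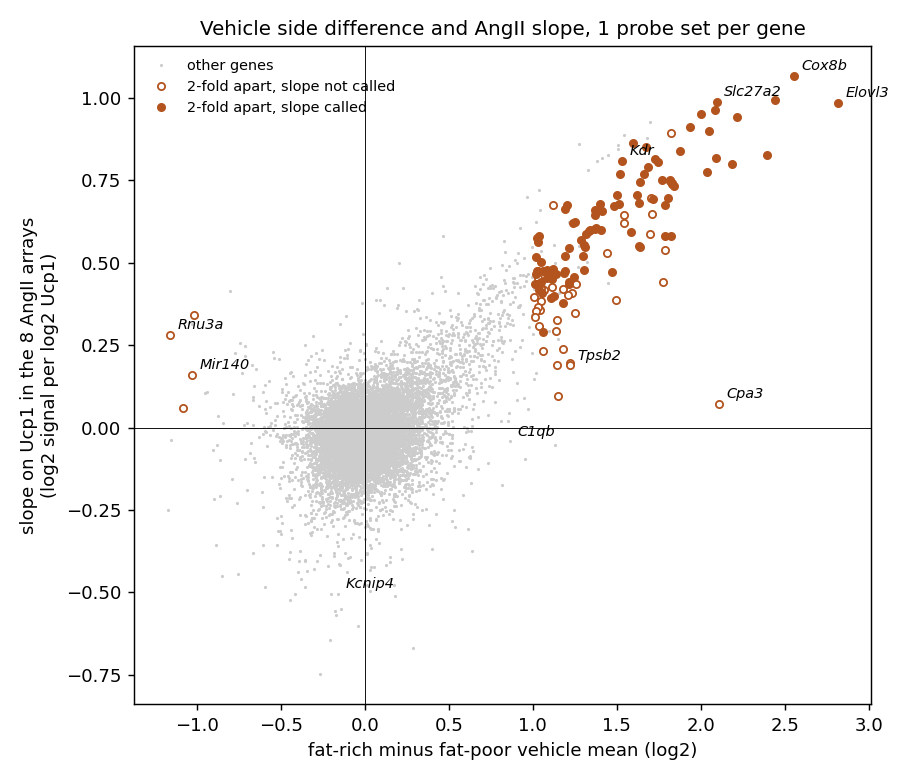
Difference between the fat-rich and fat-poor vehicle means (horizontal, log2) against the slope on Ucp1 in the 8 AngII arrays (vertical, log2 per log2 unit of Ucp1), 1 point per gene, with the 2-fold different genes as circles, filled where the slope passed an adjusted p of 0.05. All 130 genes that were 2-fold higher had positive slopes, while Cpa3 combined a difference of 2.11 with a slope of 0.07.

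Of 17 capillary endothelial genes 7 were apart and higher on the fat-rich side, beside 7.74% of all genes. Of the 17, 4 were 2-fold higher, the median was 0.74, and 7 rose with Ucp1 in the AngII arrays. Cd300lg, a receptor of capillary endothelium, had 8.18, 7.05 and 7.62 against 6.20, 5.90, 6.71 and 5.59, or 2.86-fold. It rose among the AngII mice by 0.77 ± 0.09 (adjusted p = 0.00349, and 0.0829 without AngII 6). Gpihbp1, which anchors lipoprotein lipase in capillaries, was 1.67-fold higher and rose by 0.48 ± 0.05 (adjusted p = 0.00271, and 0.0701 without AngII 6). In the capillary list the genes Lpl, Cd36 and Fabp4 are also adipocyte genes.

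The general endothelial list of 29 genes had a median of -0.21 and 1 gene apart upwards, no more than the 7.74% of all genes. The gene apart was Kdr, the main VEGF receptor, with 8.49, 7.45 and 7.97 against 6.23, 6.04, 7.01 and 6.46, or 2.89-fold. It rose among the AngII mice by 0.81 ± 0.09 (adjusted p = 0.00349), and by 0.77 without AngII 6 (adjusted p = 0.0944). Pecam1, the junction protein of all endothelium, had 9.93, 10.51 and 11.44 against 11.38, 11.28, 11.19 and 11.09. Vehicle 1 and 2, both of the first naming series, were low, while vehicle 3 lay above all 4 fat-poor arrays. Bmx, a kinase of arterial endothelium, followed this pattern with 6.15, 6.69 and 8.16 against 8.01, 7.71, 7.97 and 7.70. Within the second series the endothelial median turned to 0.29 and the arterial endothelial median turned from -0.21 to 0.08. These 2 lists therefore had no direction by side that held within the naming series.

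Of 8 listed mast cell genes 3 were measured. On the fat-rich side 2 of these were 2-fold higher, beside 130 of all 12847 genes. None passed the test of the slope on Ucp1 in the AngII arrays, where 1.80% of all genes rose. Cpa3, the carboxypeptidase of mast cell granules, had 9.24, 8.25 and 8.85 against 7.03, 6.40, 6.52 and 6.74, or 4.31-fold without overlap. In the AngII arrays it lay between 7.41 and 8.57, above all the fat-poor arrays, and its slope on Ucp1 was 0.07 ± 0.11 (adjusted p = 0.866). Tpsb2, a mast cell tryptase, was 2.33-fold higher, with a slope of 0.19 ± 0.09 that did not pass the test. Kit, the receptor for stem cell factor, overlapped at 1.14-fold, and the slopes of all 3 genes were positive. The slopes of Cpa3 in the AngII and the vehicle arrays differed by -0.65, which did not pass the limma interaction test over all probe sets (adjusted p = 0.737).

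Macrophage genes were higher on the fat-rich side by less. Of 21 genes 20 had a higher mean, 6 were apart upwards beside 7.74% of all genes, none reached 2-fold, and the median was 0.28. C1qb, a chain of complement C1q, had 9.9995, 9.61 and 9.63 against 9.40, 8.79, 8.89 and 8.45, or 1.82-fold. Folr2, the folate receptor of resident macrophages, was 1.55-fold higher and Cd68 1.47-fold. None of the 21 genes rose with Ucp1 in the AngII arrays, where C1qb lay between 9.77 and 10.38 with a slope of -0.04 (adjusted p = 0.918). Lyve1, which lymphatic endothelium and resident macrophages share, was 1.94-fold higher, with 9.89, 9.51 and 9.19 against 8.82, 8.64, 8.50 and 8.34. No probe set of the 15094 passed the interaction test at an adjusted p of 0.05, while 985 had an unadjusted p under 0.05.

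Mesothelial genes differed in another order of arrays. Upk3b, a uroplakin of mesothelium, had 7.19, 6.64 and 7.94 against 6.08, 6.05, 6.12 and 6.05, with the highest value in vehicle 3. Upk1b was 2.06-fold higher and also highest in vehicle 3. These were the 2 genes apart among 8, and their slopes in the AngII arrays, 0.42 and 0.36, did not pass the test (adjusted p = 0.356 and 0.453). Of 24 fibroblast and adventitia genes 1, Dpp4, was apart upwards, beside 7.74% of all genes.

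**Figure D5:**
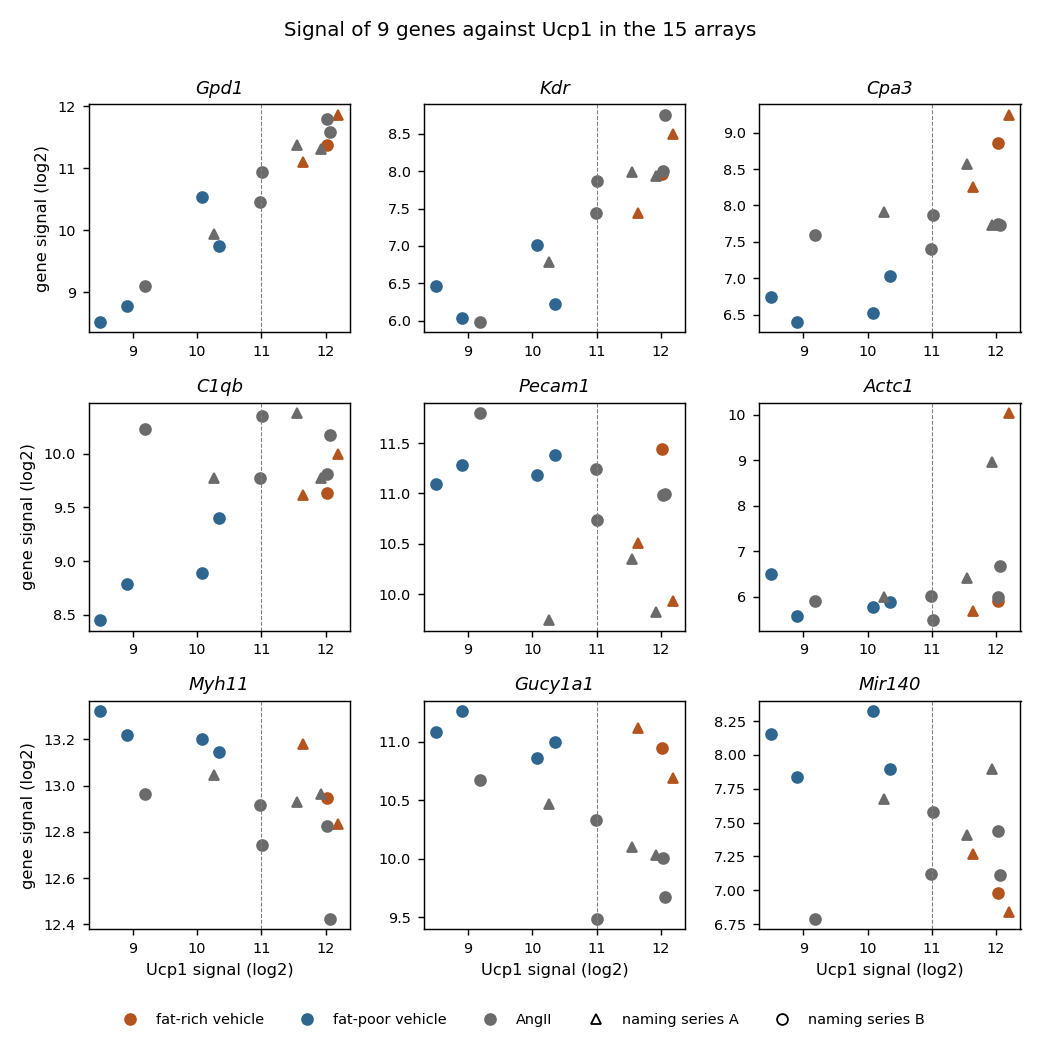
Log2 signals of 9 genes against the log2 signal of Ucp1 in all 15 arrays, with vehicle and AngII arrays in different colours, triangles for the first naming series, circles for the second and a dashed line at the limit of 11. Gpd1 and Kdr rose with Ucp1 in the AngII arrays, Cpa3 and C1qb did not, Pecam1 separated the naming series, and Actc1 was high in vehicle 1 and AngII 1 alone.

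Genes of the vessel wall differed by small amounts between the sides, and most contractile genes were lower on the fat-rich side. Of 36 smooth muscle contractile genes 2 were apart, both lower on the fat-rich side, a share near the 4.19% of all genes. None was 2-fold different and the median was -0.17. Of the 36 genes 8 had a higher mean on the fat-rich side, beside 6211 of all 12847 genes. Smoc1, a matricellular protein, had 9.48, 9.84 and 9.90 against 10.06, 10.10, 10.13 and 10.17, or a difference of -0.37. Myh11 differed by -0.23, Tagln, which encodes SM22α, by -0.17 and Acta2 by 0.04, all with overlapping sides. Smooth muscle channel genes had a median of -0.05 and HOX genes one of -0.12. None of the smooth muscle contractile genes passed the test of the slope on Ucp1 in the AngII arrays. Of their 36 slopes 4 were positive, beside 5525 of 12847 over all genes.

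The genes on which the study centred, the subunits of soluble guanylyl cyclase, which makes cGMP in response to nitric oxide, overlapped between the sides. Gucy1a1 had 10.69, 11.12 and 10.94 on the fat-rich side and lay between 10.86 and 11.26 on the fat-poor side, a difference of -0.13. Gucy1b1 differed by -0.12. In the AngII arrays their slopes on Ucp1 were -0.27 (adjusted p = 0.311) and -0.30 (adjusted p = 0.283). Of 19 Notch genes 3 were apart, all lower on the fat-rich side, beside 4.19% of all genes. The median of the list was -0.10 and turned to 0.012 within the second naming series. Maml2, a coactivator of the Notch complex, had 9.19, 9.57 and 9.55 against 9.76, 9.72, 9.58 and 9.92, or a difference of -0.31, and its sides nearly met at 9.57 and 9.58. Hes1, a Notch target, differed by -0.45, with vehicle 4 far above the others at 7.87. Fryl, a partner of the Notch complex in the study, overlapped with a difference of -0.07. Gapdh, often used as a loading control, was 1.32-fold higher on the fat-rich side without overlap.

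The 4 genes that were 2-fold lower on the fat-rich side were Rnu3a, a small nucleolar RNA (-1.16), Ptcd3, a mitochondrial ribosome protein (-1.08), Mir140 (-1.03) and Snora74a (-1.01). Within the second naming series the differences were -0.79 for Rnu3a, -0.35 for Ptcd3, -1.07 for Mir140 and -0.47 for Snora74a. A further probe set of Ptcd3 differed by 0.22 in the other direction. The 63 small nucleolar RNA genes of the Snor families were grouped after their values were seen. Of them 9 were apart, all lower, beside 4.19% of all genes, and the median was -0.47. Within the second naming series their median was 0.018. The list mean was 8.31 to 9.18 in the fat-rich arrays and 9.02 to 9.29 in the fat-poor arrays. In the AngII arrays it was 8.63 to 8.91 in the first series and 9.06 to 9.60 in the second. In both conditions the lowest values thus lay in the first naming series, and for vehicle 1 and 2 side and series cannot be told apart.

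Mir140 kept its difference within the second naming series. Its probe set had 6.84, 7.27 and 6.98 in the fat-rich arrays and 7.90, 7.84, 8.32 and 8.15 in the fat-poor arrays, and vehicle 3 alone was 1.07 below the mean of vehicle 4 to 7. In the AngII arrays its slope on Ucp1 was 0.16 (adjusted p = 0.623), so the relation was not seen there. Of 130 microRNA genes 14 were apart and lower and 2 apart and higher, with a median of -0.13. Over all genes 4.19% were apart and lower and 7.74% apart and higher. Mir23a and Mir27a, which lie in 1 cluster, differed by -0.86 and -0.68, and by -0.41 and -0.34 within the second series. Mir143, a microRNA of smooth muscle, differed by -0.60 and by -0.72 within the second series. Mir27a and Mir143 were named after their values were seen. The array does not separate precursors from mature microRNAs.

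The 3p mature products of 3 of these genes are shown in RefSeq's sequence. The seed, bases 2 to 8, is in capitals, because it is the part of a microRNA that pairs with its target messages. All 3 products lie on the plus strand of chromosome 8 of GRCm38.p6, miR-140-3p at chr8:107551288-107551308, miR-23a-3p at chr8:84208563-84208583 and miR-27a-3p at chr8:84208727-84208747.
mmu-miR-140-3p: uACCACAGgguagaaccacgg
mmu-miR-23a-3p: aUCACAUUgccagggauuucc
mmu-miR-27a-3p: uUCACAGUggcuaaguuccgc
The 3 seeds differ from each other, although miR-23a-3p and miR-27a-3p both begin their seeds with UCACA. The 5p products of Mir23a and Mir27a, not shown, have the further seeds GGGUUCC and GGGCUUA. These products thus form no group by shared seed.

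Heart muscle genes marked 1 array of the fat-rich side. Actc1, cardiac actin, had 10.03 in vehicle 1 and between 5.59 and 6.50 in the other vehicle arrays, and in the AngII arrays it had 8.96 in AngII 1 and at most 6.67 elsewhere. The cardiac troponins Tnnt2 and Tnni3 behaved alike, with 11.32 and 10.68 in vehicle 1. The cardiac list had a median difference of 1.15 with none apart, and -0.01 within the second naming series, which leaves vehicle 1 out. Without vehicle 1, 83 probe sets were 2-fold higher on the fat-rich side and none was 2-fold lower. Within that series, in which vehicle 3 is the only fat-rich array, Actc1 differed by -0.03, Cox8b by 2.72 and Cox7a1 by 2.65. The part of heart tissue in the mitochondrial differences was not tested.

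Across genes, promoters offered a description of the same division. Of the 130 genes that were 2-fold higher, 94 had a promoter window in the RefSeq table, as had 10051 of the 12847 genes measured. The median number of CG dinucleotides in the window was 13.5 for the 94 and 20 for all measured genes, and the median GC content was 58.3% and 60.7%. TATAAA on the strand of the gene was found in 9 of the 94 windows (9.57%) and in 475 of the 10051 (4.73%). AGGTCA on either strand was found in 20 of 94 (21.3%) and in 11.9% of the measured genes, and the GC box GGGCGG on either strand in 53.2% and 63.3%. Of the 231 genes that rose with Ucp1 in the AngII arrays, 172 had a window. In these, TATAAA was found in 5.81%, AGGTCA in 18% and GGGCGG in 62.2%. Their median number of CG dinucleotides was 18 and their median GC content 60.3%, nearer to all measured genes than to the 94. These shares describe the letters in the windows and were not tested.

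The 4 probe sets that fell with Ucp1 in the AngII arrays were Kcnip4, a modulator of potassium channels (slope -0.50 ± 0.07, adjusted p = 0.00687), the arterial ephrin Efnb2 (-0.39, adjusted p = 0.0253), the cadherin Cdh26 (-0.25, adjusted p = 0.0252) and the glypican Gpc6 (-0.22, adjusted p = 0.0313). Each was highest in AngII 6, and without that array none passed the test, with adjusted p between 0.244 and 0.69. Their vehicle sides overlapped, and the differences lay between -0.26 and 0.03.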

How the data were processed

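The aortae of 7 vehicle-treated and 8 AngII-treated mice were hybridised to Affymetrix arrays, 1 array per mouse. The deposited table holds log2 values that the authors made with RMA in Affymetrix Expression Console. It has 15095 probe sets, of which 13403 carried 1 gene symbol, 958 several and 734 none, and 0 columns belonged to no sample of the series. A gene was represented by the probe set with 1 symbol and the highest mean over the 15 arrays. Ucp1, measured by 1 probe set, was left out of every comparison.

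Side means were compared as differences of log2 values with no test, since Ucp1 values of the same arrays chose the sides. Slopes on Ucp1 in the 8 AngII arrays, and their difference from the vehicle slopes in all 15 arrays, were tested with limma 3.58.1 in R 4.3.3 (lmFit and eBayes, Benjamini-Hochberg over 15094 probe sets, adjusted p of 0.05). Tables and plots were made with Python 3.11.15, pandas 2.3.3, numpy 2.4.6 and matplotlib 3.10.9. Both fits were checked on simulated data. The number of arrays limits the precision, and p-values measure the spread between mice. The sides, the members and the gene lists were chosen with earlier results of these data known, and no list was treated as independent evidence. Named were the 12 genes with the largest positive and the 12 with the largest negative difference among those whose sides did not overlap, up to 5 genes of each list, all cytochrome oxidase isoforms, the 10 largest slopes called in each direction and Gucy1a1, Gucy1b1, Fryl, Maml2, Thbs1 and reference genes. Others are named as chosen after their values were seen: besides those given in the text, these were Gpihbp1, Fasn, Myh11, Acta2 and Tagln. Sequences came from RefSeq tables on GRCm38.p6, and 107 of 130 microRNA genes had an entry. Alternatives left out each array, kept the second naming series, rescaled the arrays, changed the fold limit or the overlap rule, dropped dim probe sets, and added the naming series or array weights to the slope fit.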

Additional observations from a re-analysis of the deposited data

Results flagged for a closer look

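In groups of 4 to 8 arrays, the highest or lowest array of a named gene was compared with its nearest neighbour relative to the range of the group (Dixon's criterion). Of 330 pairs of gene and group 17 passed, and chance passes about 1 in 20. Heart muscle genes made up most of them. In vehicle 1, Actc1 was 10.03 (next 6.50), Tnnt2 11.32 (next 8.06), Tnni3 10.68 (next 6.98), the oxygen-binding protein Mb 9.63 (next 6.12) and Cox6a2 9.20 (next 6.10). AngII 1 was the highest AngII array for the same 5 genes, with Actc1 at 8.96 (next 6.67), Tnnt2 at 10.55 (next 8.85), Tnni3 at 9.88 (next 7.15), Mb at 8.60 (next 7.09) and Cox6a2 at 8.14 (next 6.48). Both arrays belong to the first naming series.

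Pnpla3 was 8.66 in vehicle 6, while the other fat-poor arrays reached at most 6.61. Gapdh was 12.42 in vehicle 4 against at most 12.19 in the other fat-poor arrays. Among all vehicle arrays, Hes1 was 7.87 in vehicle 4 (next 7.24) and Acta2 was 13.94 in vehicle 2 (next 13.86). Among the AngII arrays, Cpa3 was 8.57 in AngII 3 (next 7.91), Thbs1, a matricellular protein, was 11.18 in AngII 8 (next 10.37), and Cdh26 was 6.19 in AngII 6 (next 5.63).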

How the results depend on the processing

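No paired analysis was possible because the comparison lies within the vehicle arrays, and the slopes within the AngII arrays, so that no replicate number is shared between the groups compared. Leaving out each vehicle array in turn gave 83 to 249 probe sets at least 2-fold apart without overlap, 83 to 240 of them higher and 0 to 37 lower: the total was 83 without vehicle 1, 249 without vehicle 2 and 221 without vehicle 6, and 37 were lower without vehicle 3. The second naming series alone gave 2 lower. A limit of 1.5-fold gave 397 in all, 365 higher and 32 lower, and allowing overlap gave 7 lower. Leaving out each AngII array in turn gave 2 to 290 probe sets with a slope on Ucp1, 2 to 275 rising and 0 to 24 falling: 2 were called without AngII 6, 99 without AngII 5, 129 without AngII 7 and 149 without AngII 2, and 24 fell without AngII 8. The 4 falling calls became 12 with the naming series as a covariate, 9 with array weights, 10 with centred arrays and 8 after a further quantile normalization. The interaction test called none under any alternative, with 455 to 1411 unadjusted p-values under 0.05. Among 2070 values for differences of single genes 2014 moved by less than the spread between arrays, and among 2826 slopes of single genes 138, in 64 genes, lost significance and none turned. Of 380 list medians 5 moved by more than the spread, all within the second naming series, for endothelial, arterial endothelial, erythroid, cardiac muscle and snoRNA genes. Arrays give signal over background without a count of molecules, so low signals such as those of Cox6a2 outside vehicle 1 may lie at background.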

Other observations

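Genes of the circadian clock did not divide by side. Arntl, the activator that drives the clock, was 9.03, 9.19 and 7.14 in the fat-rich arrays and 6.10, 8.84, 8.61 and 5.73 in the fat-poor arrays. Dbp, a clock output gene that peaks at another time of day, was 7.59, 7.74 and 10.27 against 10.90, 8.12, 8.88 and 10.93. Vehicle 3, 4 and 7 thus had low Arntl with high Dbp and the other 4 vehicle arrays had the opposite, across both sides. The clock list of 15 genes had a median difference of -0.26 with 1 gene apart and lower, beside 4.19% of all genes.

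Immediate early genes (18 genes, median -0.17), T and B lymphocyte genes (5 genes, median -0.22) and lymphatic endothelial genes (8 genes, median 0.18) showed small differences. The 9 loading controls had a median of 0.005, with 1 gene apart in each direction.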
